A study of Mus musculus with 2 samples.

Results

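Liver innate immune cells of mice fed CDA-HFD, a high-fat diet without choline whose protein is replaced by amino acids, for 7 weeks were compared with those of mice fed a normal diet (ND), in both genotypes of the study. The cells were taken from 1 matrix of mRNA counts by the hashtag in their names, a DNA barcode that told the mice apart. Barcodes that the authors named doublets (1392) and cells with more than 25% mitochondrial counts (10) were left out, and 15384 of 16786 barcodes remained, 3313 from ND and 12071 from CDA-HFD. Doublets of cells of the same mouse share a hashtag and were not removed. No barcode occurred more than once.

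The study asked how myeloid *Egr2* shapes macrophages during diet-induced steatohepatitis. CD45.2+ CD11b+ cells without the lineage markers CD90.2, B220, NK1.1 and SiglecF were sorted from liver, pooled and captured on the BD Rhapsody system. The labels give 3000 loaded cells for each ND-fed mouse and 9000 for each CDA-HFD-fed mouse, and 1 of the hashtags is written differently in the loading note than elsewhere. All mice carried loxP-flanked *Egr2* on both alleles (Egr2fl/fl). The Lyz2Cre/+.Egr2fl/fl mice also carried Cre in 1 copy of *Lyz2*, which is active in myeloid cells and deletes *Egr2* there. There was 1 mouse for each combination of genotype and diet, and the methods describe young males. Each diet comparison therefore sets 1 mouse against 1 mouse: the Egr2fl/fl pair, and the Lyz2Cre/+.Egr2fl/fl pair, called the Cre pair here. The pairs share no mouse. As no group held a second mouse, no test was made. The difference between the genotypes on the same diet was the only mouse-to-mouse difference available as a yardstick.

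In what follows 4 values in a row are those of the ND-fed Egr2fl/fl, the ND-fed Lyz2Cre/+.Egr2fl/fl, the CDA-HFD-fed Egr2fl/fl and the CDA-HFD-fed Lyz2Cre/+.Egr2fl/fl mouse. The cells numbered 1723, 1590, 5885 and 6186, with total counts of 32029953, 27840300, 85227192 and 90124521. Median counts per cell were 16459, 15864.5, 13168 and 13476.5, and the median detected genes 2832, 2824.5, 2295 and 2374. A cell of the CDA-HFD-fed mice thus held fewer counts and genes at the median. Of the hashtag counts in a cell, the part on its own hashtag had medians of 93.1%, 92.9%, 93.6% and 94.2%, and 24, 25, 4 and 0 cells had under 50%. Levels are counts summed over the cells of a mouse per 1000000 summed counts (CPM). The notes do not say if reads or unique molecules were counted, and 95% intervals of ratios (exact binomial) and of shares (Clopper-Pearson) cover counting error only. Low values of some genes had been set to 0 in the matrix, and the lowest count above 0 was 18 for *Apoe*, 11 for *Ftl1*, 8 for *Clec4f*, 7 for *Cd5l*, 6 for *Fcna*, *Cxcl2* and *Ccl5*, and 5 for *Vsig4* and *Mmp12*. Of the genes of the sort, *Ptprc*, which encodes CD45, had a count in 95.5%, 93.1%, 94.95% and 94.8% of cells. *Itgam*, which encodes CD11b, had a count in 51.0%, 51.0%, 72.6% and 72.8%.

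Kupffer cells are the resident macrophages of the liver sinusoid, where they take up bacteria, aged red cells and modified lipoproteins. When they are lost, blood monocytes enter the liver and differentiate in part into macrophages that take over Kupffer cell genes and in part into lipid-associated macrophages, which express *Trem2*, *Spp1*, *Gpnmb* and *Cd9* and gather around fat-laden hepatocytes. Neutrophils, patrolling monocytes and dendritic cells make up much of the remaining CD11b+ cells. Because these classes differ in their marker genes, a sum over all cells follows the mixture of classes as well as the level within each. For the sums over all cells, the share of a class and the level per cell cannot be told apart, and so classes are given before genes.

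Cells were placed in classes by lists of marker genes. A marker was on at 100 CPM in the cell, and a class needed at least 50% of its measured markers on and a larger share on than any other class, with Kupffer cells taken before the others because they also carry the C1q genes. Classes are called -like, because they rest on markers alone. Kupffer-like cells numbered 775, 846, 25 and 51. Their share of the cells was 45.0% (42.6 to 47.4), 53.2% (50.7 to 55.7), 0.425% (0.275 to 0.626) and 0.824% (0.614 to 1.08). They supplied 60.1%, 69.0%, 0.783% and 1.56% of all counts, so the class that gave most of the RNA on ND was nearly absent on CDA-HFD. C1q macrophage-like cells moved the other way, from 8.82% (7.52 to 10.3) and 6.10% (4.97 to 7.39) to 26.6% (25.5 to 27.7) and 28.2% (27.1 to 29.3). Ly6Chi monocyte-like cells rose from 7.89% and 5.47% to 18.5% and 19.3%. In these 3 classes the diets did not overlap, and the genotypes on 1 diet differed by less than the diets.

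Ly6Clo monocyte-like cells stood at 7.20%, 4.65%, 6.22% and 7.06%, with the diets overlapping. Neutrophil-like cells made up 6.38%, 12.3%, 15.7% and 12.4%, and the ND-fed Lyz2Cre/+.Egr2fl/fl mouse lay level with the CDA-HFD-fed mouse of its genotype. Cd209a dendritic cell-like cells made up 5.63%, 5.28%, 8.12% and 7.86%. No class was found for 9.40%, 5.47%, 20.8% and 20.1% of cells, so the lists described the CDA-HFD-fed livers less fully. The remaining classes were small: 247 Ccr7 dendritic cell-like, 126 proliferating, 120 T or NK, 119 Xcr1 dendritic cell-like, 93 endothelial, 51 B, 10 plasmacytoid dendritic and 4 basophil-like cells over the 4 mice. T, NK and B cell classes were thus present at low numbers although the sort used markers against them.

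**Figure D1:**
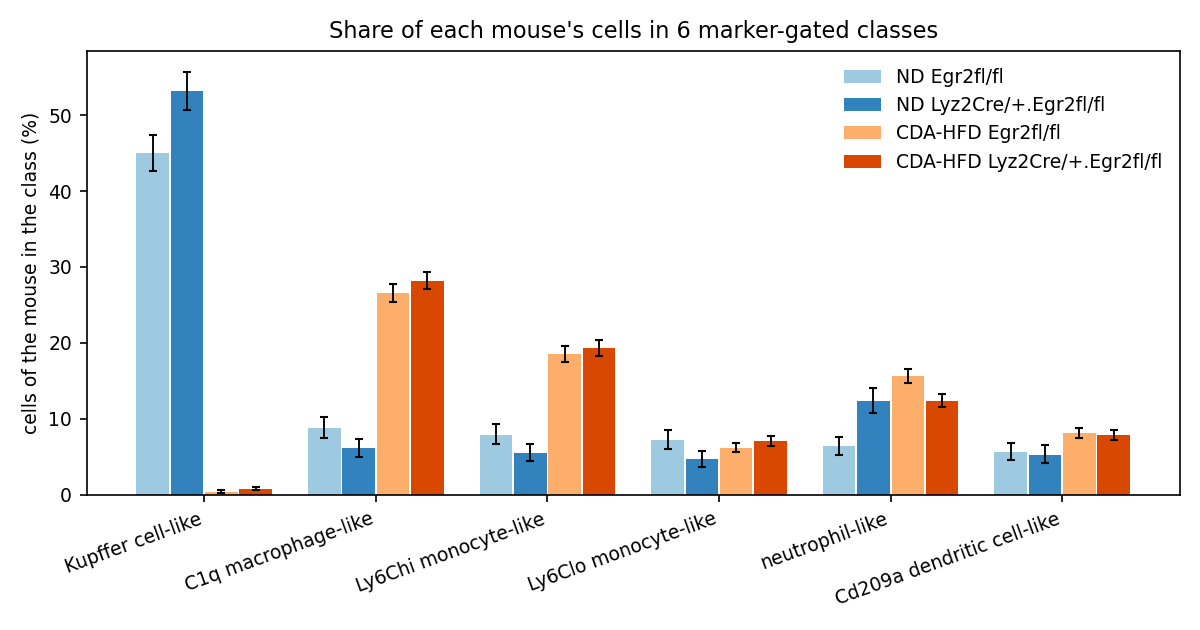
Percentage of each mouse's cells in 6 marker-gated classes, 1 bar per mouse with its exact 95% Clopper-Pearson interval. Kupffer-like cells fell from 45.0% and 53.2% on ND to 0.425% and 0.824% on CDA-HFD.

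The gates divide a continuous range. Cells at the fewest markers that a class allowed made up 2.36% of the Kupffer-like, 5.87% of the neutrophil-like, 12.7% of the C1q macrophage-like, 21.5% of the Ly6Chi monocyte-like, 24.98% of the Ly6Clo monocyte-like and 54.1% of the Cd209a dendritic cell-like cells. Of these 6 classes the dendritic class had the largest share at its minimum. Kupffer-like cells had a median of 9 of their 10 markers on in ND-fed and 6 in CDA-HFD-fed mice, with 8 of 8 C1q macrophage markers on either diet. C1q macrophage-like cells had a median of 7 of 8 own markers and 0 Kupffer markers on either diet. Own markers at the median went from 6 to 6 in Ly6Chi monocyte-like, from 6 to 5 in Ly6Clo monocyte-like, from 6.5 to 7 in neutrophil-like and from 4 to 4 in Cd209a dendritic cell-like cells. In these 4 classes no other list had a median above 2.

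Over all cells, 7901 genes had a mean of at least 10 CPM. Of these, 270 (3.42%) were at least 2 times higher on CDA-HFD in both pairs and 462 (5.85%) at least 2 times lower, on log2 ratios with 1 CPM added. Called is used below for a gene past 2 times in 1 direction in both pairs. The split of called genes was 36.9% higher with total-count scaling, 47.0% with DESeq2 size factors and 65.9% when each class weighed the same in all mice. TMM factors moved the median log2 ratio of all genes by 0.14 in both pairs and size factors by 0.15 in both, from -0.11 and -0.11 to just above 0, so a list median within that range of 0 has no fixed direction. A minimum of 1 CPM gave 929 lower genes, a minimum of 50 CPM 127 higher and 177 lower, and equal class weights 116 higher and 60 lower. Between genotypes, 8 genes (0.101%) were at least 2 times higher and 2 (0.0253%) at least 2 times lower in Lyz2Cre/+.Egr2fl/fl on both diets.

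Each diet pair alone had 876 and 894 genes past 2 times in either direction, against 65 between the genotypes on ND and 29 on CDA-HFD. The median size of a log2 ratio was 0.31 in both diet pairs, against 0.12 between the genotypes on ND and 0.08 on CDA-HFD. The direction was the same in both pairs for 85.7% of genes, and Pearson's r between the pairs was 0.943 across genes, which are not independent replicates. The same r for the genotype difference on ND against that on CDA-HFD was 0.231. No gene with a mean of at least 50 CPM (of 2812) was 2 times apart in opposite directions.

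**Figure D2:**
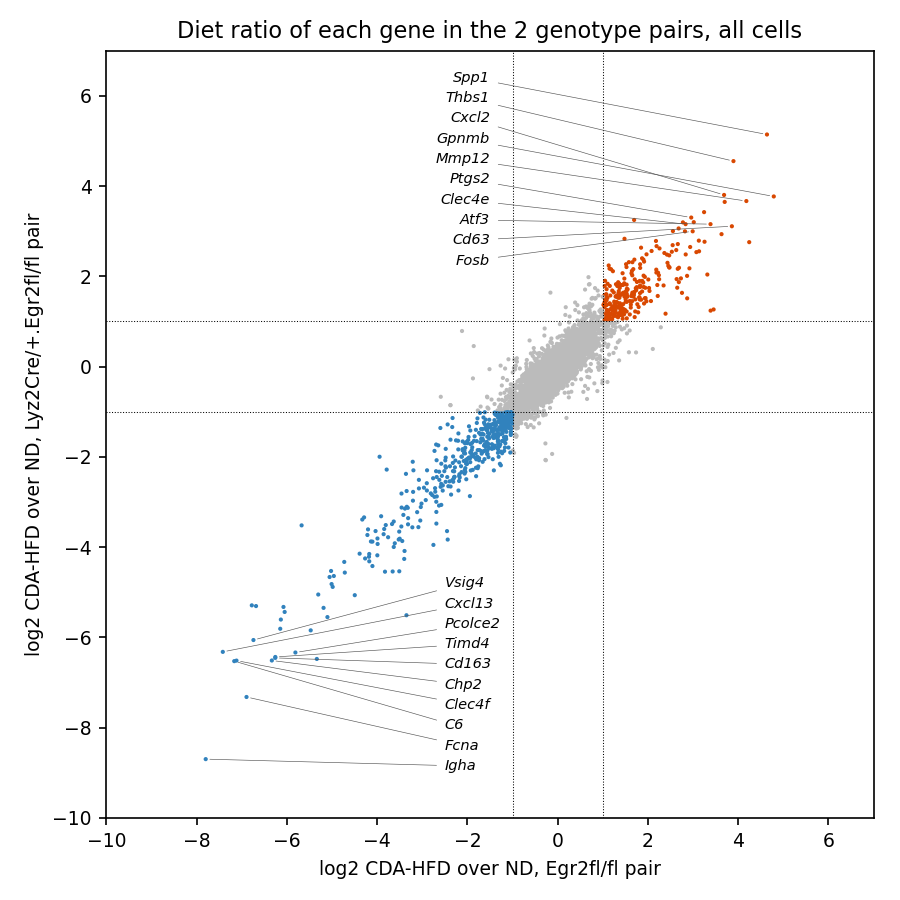
Log2 CDA-HFD over ND ratio of each of 7901 genes in the Egr2fl/fl pair (x axis) and the Lyz2Cre/+.Egr2fl/fl pair (y axis), sums over all cells; dotted lines mark 2 times. Orange (270) and blue (462) points are past 2 times in both pairs, and the 10 highest and 10 lowest named genes are labelled.

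By the smaller ratio of both pairs, the 10 highest named genes were, in order, *Spp1*, *Thbs1*, *Gpnmb*, *Cxcl2*, *Mmp12*, *Atf3*, *Cd63*, *Fosb*, *Ptgs2* and *Clec4e*. They were picked for large ratios in both pairs and a diet difference above the genotype difference. A gap between the diets thus follows from the choice. *Spp1*, which encodes the secreted glycoprotein osteopontin, stood at 10.5, 7.22, 285 and 290 CPM. Both CDA-HFD values lay far above both ND values, by 27.2 times (24.4 to 30.4) in the Egr2fl/fl and 40.1 times (34.9 to 46.3) in the Cre pair. *Gpnmb*, a transmembrane glycoprotein of lysosome-rich macrophages, stood at 9.12, 14.3, 279 and 207 CPM, 30.6 times (27.3 to 34.5) and 14.5 times (13.2 to 16.1) higher. *Thbs1*, which encodes thrombospondin 1, an activator of latent TGF-beta, stood at 8.43, 5.71, 139 and 157 CPM, 16.5 times (14.7 to 18.7) and 27.4 times (23.5 to 32.3) higher. It had a count in 6.38%, 5.03%, 24.1% and 25.9% of cells. The elastase gene *Mmp12* stood at 10.6, 6.21, 209 and 90.8 CPM. On CDA-HFD the Lyz2Cre/+.Egr2fl/fl mouse had the lower *Mmp12* value, by 1.20 on the log2 scale, yet far above either ND value. The late-endosomal tetraspanin *Cd63* stood at 29.2, 33.3, 437 and 295 CPM.

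Of the 21 tested genes of the lipid-associated macrophage list, 14 were called higher and 0 lower, with median log2 ratios of 1.42 and 1.36. Without the Kupffer-gated cells 13 were called higher and 0 lower. The shares of all genes were 3.42% higher and 5.85% lower over all cells, and 1.85% and 2.82% without those cells. The members of this and the other gene lists were chosen with earlier results of these data known, so these counts are no independent test. Not all of the 13 were among the 14. *Cd9* (log2 ratios 1.11 and 0.35), *Fabp5* (1.57 and 0.83) and *Itgax* (0.11 and -0.48) then fell short of 2 times in at least 1 pair. The lipid sensor *Trem2* stood at 57.3, 106, 425 and 432 CPM, and its ND values differed by 0.88 on the log2 scale. *Cd9*, a tetraspanin, stood at 85.3, 94.5, 398 and 334 CPM. *Fabp5*, a fatty acid carrier, stood at 62.0, 55.6, 398 and 253 CPM. *Itgax*, which encodes CD11c, went from 61.1 and 48.9 to 156 and 106 CPM. At the other end of this list, *Apoe* (17236, 22518, 12476 and 14236 CPM) and *Ctsl* (240, 283, 147 and 162 CPM) were lower on CDA-HFD in both pairs but not past 2 times. Kupffer cells also express both genes.

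The other 5 of the 10 are induced within minutes to hours of stimulation. The methods describe digestion of the liver with warm collagenase before cells are stained, and the part of this handling was not tested. *Cxcl2*, a chemokine that draws neutrophils, stood at 81.4, 48.2, 1062 and 686 CPM and had a count in 4.12%, 3.46%, 26.9% and 21.2% of cells. *Ptgs2*, the inducible cyclooxygenase, stood at 12.9, 7.69, 107 and 84.8 CPM. *Clec4e*, which encodes Mincle, a receptor for lipids of mycobacteria and dying cells, stood at 39.3, 28.3, 287 and 261 CPM. All 3 were 7.30 to 14.2 times higher on CDA-HFD. *Atf3*, a stress-induced repressor, stood at 98.9, 96.9, 1045 and 872 CPM, 10.6 times (10.2 to 10.9) and 9.002 times (8.66 to 9.36) higher. *Fosb*, an AP-1 subunit, stood at 29.8, 26.6, 245 and 219 CPM. Their genotype differences on 1 diet were at most 0.74 on the log2 scale, and genes were named only where these fell below the diet difference.

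At the low end stood genes that define Kupffer cells. *Clec4f*, a galactose-binding lectin restricted to them, stood at 4394, 5396, 30.6 and 58.0 CPM, 143 times (138 to 149) and 93.0 times (90.5 to 95.7) lower on CDA-HFD. It had a count in 45.6%, 54.0%, 0.680% and 1.08% of cells, close to the shares of the class. *Timd4*, the phosphatidylserine receptor Tim4, stood at 406, 441, 4.32 and 4.11 CPM. *Vsig4*, a complement receptor, stood at 1903, 2332, 16.8 and 34.0 CPM. *Cd163*, the haptoglobin-haemoglobin receptor, stood at 414, 526, 4.42 and 5.004 CPM. All 4 were at least 68.6 times lower on CDA-HFD in both pairs. *Fcna*, *C6*, *Chp2*, *Cxcl13* and *Pcolce2* completed the named genes with log2 ratios from -7.42 to -5.81. Lower too were *Il18bp* (682, 787, 42.0 and 50.7 CPM), the decoy of interleukin 18, and the lectin *Cd207* (703, 871, 75.3 and 110 CPM). In the Kupffer cell identity list 21 of 24 tested genes were called lower and 0 higher, with medians of -4.72 and -4.24. Of all genes, 5.85% were called lower and 3.42% higher. The exceptions included the inhibitors of DNA binding *Id3* (log2 ratios 0.09 and 0.02) and *Id1* (-0.27 and -0.31). *Igha*, an antibody heavy chain, was also among the lowest at 222, 415, 0 and 0 CPM, but these counts came from 2 and 3 cells, and its lowest count above 0 was 296.

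The calls were then repeated without the Kupffer-gated cells. Of the 270 genes called higher over all cells 80 were still past 2 times in both pairs, and of the 462 called lower 69 were, 61 of these with a mean of at least 10 CPM. In all, 146 genes (1.85%) were higher and 222 (2.82%) lower among 7884 tested. *Spp1* then stood at 17.5, 15.7, 287 and 294 CPM, *Trem2* at 51.5, 78.2, 425 and 432 CPM and *Atf3* at 142, 176, 1049 and 880 CPM, so these genes were still past 2 times in both pairs. *Itgax* (146, 150, 157 and 107 CPM) no longer differed by diet in 1 direction. *Rbpj* (81.1, 78.6, 76.2 and 75.9 CPM), higher on CDA-HFD over all cells, was then slightly lower, with log2 ratios of -0.09 and -0.05. The Kupffer identity list had medians of 0.11 and -0.23 without the Kupffer-gated cells, but it holds all 10 gate markers of that class, so the gate itself removes much of its difference.

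For 12 genes called lower over all cells the ratio was past 2 times higher in both pairs without the Kupffer-gated cells, and for 0 genes the reverse. They were *Abcc3*, *Bach2os*, *Blvrb*, *Cd5l*, *Fabp7*, *Gpx3*, *Hmox1*, *Igf1*, *Nr1h3*, *Pmp22*, *Spic* and *Tmem37*. *Bach2os* (2.27, 3.01, 6.11 and 13.7 CPM) and *Pmp22* (1.25, 2.20, 4.73 and 6.97 CPM) had a mean under 10 CPM there. *Hmox1*, which encodes the heme-degrading enzyme heme oxygenase 1, went from 770, 750, 321 and 296 CPM over all cells to 75.2, 83.5, 320 and 292 CPM. The CDA-HFD values hardly moved, while those on ND fell below them. The growth factor gene *Igf1* went from 628, 676, 231 and 247 to 28.2, 49.0, 225 and 235 CPM. *Nr1h3*, which encodes the oxysterol receptor LXR-alpha that maintains Kupffer cell identity, went from 275, 280, 104 and 97.5 to 34.1, 33.3, 102 and 94.2 CPM. *Cd5l*, a secreted protein of tissue macrophages, went from 3699, 4314, 138 and 214 to 11.8, 17.0, 105 and 135 CPM. *Cd5l* was itself a gate marker of the Kupffer class, so leaving out the gated cells removes cells that carry it, most of them on ND.

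Transcription factors moved in both directions. *Egr2*, a zinc finger factor induced by growth signals, stood at 13.3, 5.85, 49.4 and 18.2 CPM over all cells, and was called higher in both pairs. Without the Kupffer-gated cells its log2 ratios were 0.95 and 0.14. Within C1q macrophage-like cells it stood at 50.02, 3.68, 58.1 and 12.2 CPM, so in the Egr2fl/fl pair the class had nearly the same level on both diets. *Nfil3*, a basic leucine zipper factor, stood at 8.87, 4.96, 57.0 and 46.8 CPM and *Bhlhe40*, a helix-loop-helix repressor, at 30.7, 31.3, 132 and 87.5 CPM. *Pparg*, a fatty acid-sensing nuclear receptor, stood at 10.8, 8.76, 27.8 and 33.6 CPM. *Rbpj*, the nuclear mediator of Notch, stood at 41.8, 40.5, 75.8 and 75.1 CPM, short of 2 times. Of the 35 tested factors of the list, 9 were called higher and 6 lower, beside 3.42% and 5.85% of all genes. The lower ones included *Rxra* (126, 137, 20.8 and 21.3 CPM), the partner of LXR-alpha, and *Tfec* (92.9, 103, 17.8 and 19.8 CPM). Without the Kupffer-gated cells 8 factors were called higher and 0 lower, beside 1.85% and 2.82% of all genes. *Bhlhe40* (log2 ratios 1.22 and 0.64) and *Pparg* (0.94 and 1.33) then fell short of 2 times in 1 pair each. *Rxra* stood there at 13.6, 19.6, 20.1 and 19.5 CPM and *Tfec* at 17.8, 21.5, 17.2 and 18.0 CPM.

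Among ligands, 6 of 18 tested chemokine genes were called higher and 2 lower. The shares of all genes, 3.42% higher and 5.85% lower, stand beside the counts in this paragraph. In a list this short, 2 calls cannot be told apart from them. Larger counts are no test either, as the members of the gene lists were chosen with earlier results of these data known. *Ccl9* stood at 165, 142, 852 and 819 CPM, while the eosinophil attractant *Ccl24* stood at 600, 612, 59.4 and 53.3 CPM and *Cxcl13*, which draws B cells, at 347, 249, 1.03 and 2.12 CPM. Of 16 tested cytokines and growth factors, 6 were called higher and 4 lower. *Vegfa*, which drives vessel growth, rose from 1.25 and 1.11 to 26.9 and 15.2 CPM. *Tnfsf9*, the ligand of 4-1BB, rose from 6.84 and 4.74 to 62.4 and 51.8 CPM. *Il1a* fell from 54.2 and 45.2 to 12.7 and 13.6 CPM. Among chemokine receptors, *Cxcr4*, the receptor of *Cxcl12*, stood at 36.0, 45.9, 282 and 294 CPM, and *Ccrl2*, a non-signalling chemerin receptor, at 52.6, 36.9, 378 and 302 CPM.

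The counts over all cells in this paragraph stand beside 3.42% higher and 5.85% lower for all genes. A list's 1 or 2 calls cannot be told apart from these shares. Of 27 tested pattern recognition and C-type lectin receptors, 9 were called higher and 4 lower. The lower ones included the scavenger receptor *Marco* (247, 134, 3.85 and 10.8 CPM) and the mannose receptor *Mrc1* (683, 794, 82.5 and 90.9 CPM). Of 23 tested NF-kB targets, 7 were called higher and 0 lower, with *Nfkbid*, a nuclear IkB protein, at 15.9, 15.7, 92.9 and 75.6 CPM. Of 19 tested complement genes, 12 were called lower and 3 higher, with medians of -2.30 and -2.28. The C5a receptor *C5ar1* (40.2, 55.9, 126 and 140 CPM) went against the list. The medians of the complement list, which holds the Kupffer gate markers *C6* and *Vsig4*, were 0.06 and -0.16 without the Kupffer-gated cells. Of 6 tested Fc gamma receptor genes, the inhibitory *Fcgr2b* (103, 104, 220 and 248 CPM) was called higher, and *Fcgr4* (559, 551, 179 and 194 CPM) and *Fcgrt* (239, 340, 56.5 and 68.7 CPM) lower. Of 17 tested integrin and adhesion genes, 4 were called higher and 2 lower. Of 16 S100 and annexin genes, 5 were called higher and 0 lower, with *S100a4* at 586, 456, 1605 and 1602 CPM. The list of 33 tested interferon-stimulated genes had 8 called lower and 0 higher, with medians of -0.94 and -0.41. Without the Kupffer-gated cells the calls, higher then lower, were 3 and 3 for chemokine genes, 5 and 0 for cytokines and growth factors, 6 and 1 for pattern recognition, 5 and 0 for NF-kB, 1 and 1 for complement, 0 and 0 for Fc gamma receptor, 2 and 1 for integrin and adhesion, 1 and 0 for S100 and annexin, and 0 and 4 for interferon-stimulated genes. Several of these counts are too small to be told apart from the 1.85% and 2.82% of all genes.

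The counts of the gene lists below stand beside shares of 3.42% higher and 5.85% lower for all genes over all cells, and of 1.85% and 2.82% without the Kupffer-gated cells. In lists this short, 1 or 2 calls cannot be told apart from these shares. Of 31 tested genes of lipid uptake, storage and efflux, 5 were called higher and 5 lower, and without the Kupffer-gated cells 10 higher and 1 lower. *Apoc2*, a cofactor of lipoprotein lipase, stood at 30.5, 31.0, 143 and 202 CPM, and *Apoc1*, an inhibitor of lipoprotein uptake, at 1511, 1695, 46.7 and 56.5 CPM. Of 16 tested Nrf2 targets, 3 were called higher and 2 lower, and without the Kupffer-gated cells 8 higher and 0 lower. The cystine importer *Slc7a11* stood at 5.46, 6.79, 39.6 and 25.2 CPM over all cells. Of 18 tested iron and heme genes, 8 were called lower and 0 higher, and without the Kupffer-gated cells 6 higher and 0 lower. The iron exporter *Slc40a1* stood at 1273, 1220, 59.8 and 68.0 CPM, and the ferritin heavy chain *Fth1* at 6358, 5537, 12043 and 10424 CPM. Of 35 tested lysosomal genes, 6 were called lower and 0 higher, and without the Kupffer-gated cells 5 higher and 0 lower. Of 22 tested matrix and repair genes, 11 were called higher and 2 lower, and without the Kupffer-gated cells 6 higher and 2 lower.

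Of 13 genes of MHC class II presentation only *H2-Eb2* (14.5, 9.05, 33.4 and 25.4 CPM) was called, as higher. Without the Kupffer-gated cells 4 of these genes were called lower and 0 higher, and *H2-Eb2* stood at 33.0, 27.1, 33.6 and 25.8 CPM. Of 24 tested glycolysis and hypoxia genes, 2 were called higher and 1 lower, too few to be told apart from the shares of all genes, with the lactate exporter *Slc16a3* at 32.0, 28.1, 120 and 107 CPM. Without the Kupffer-gated cells 1 was called higher and 0 lower. Over all cells, the lists with 0 calls in either direction were 53 nuclear-encoded respiratory chain genes, 14 cholesterol synthesis genes, 17 cell cycle genes, 15 genes of the mitochondrial genome and 89 ribosomal protein genes. Ribosomal protein genes had medians of 0.41 and 0.53 over all cells, and of -0.09 and -0.03 without the Kupffer-gated cells. Cell cycle genes had 5 called lower without them, with medians of -0.93 and -0.83. Of 9 tested clock and glucocorticoid-induced genes, 2 were called higher, *Per1* (26.5, 40.8, 88.7 and 88.5 CPM) and *Cdkn1a* (98.5, 54.5, 374 and 277 CPM), and 1 without the Kupffer-gated cells. Of 15 tested heat shock chaperones, the stress-inducible *Hspa1a* and *Hspa1b* were called higher. Their log2 ratios without the Kupffer-gated cells were 3.30 and 0.93, and 3.30 and 0.78, so the Cre pair fell short of 2 times. Over all cells *Hspa1a* stood at 84.7, 113, 940 and 274 CPM, so on CDA-HFD the genotypes differed by -1.77 on the log2 scale, more than the diets did in the Cre pair (1.27). Within Ly6Clo monocyte-like cells *Hspa1a* stood at 193, 279, 1780 and 273 CPM, high in 1 mouse alone. In neutrophil-like and in Cd209a dendritic cell-like cells, *Hspa1a* and *Hspa1b* were both called higher.

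Many genes of cells that the sort should remove were also lower on CDA-HFD. Summed liver endothelial genes stood at 571, 850, 75.1 and 130 CPM and 9 of 10 tested were called lower, with *Cdh5*, which Kupffer cells also express, the most abundant. Summed B cell genes stood at 646, 1792, 88.1 and 124 CPM, mostly *Igkc*, which had a count in 20, 17, 12 and 18 cells. Summed NK cell genes stood at 342, 191, 68.2 and 57.3 CPM and summed T cell genes at 78.8, 89.4, 19.7 and 18.6 CPM, with 4 of 4 and 1 of 1 tested called lower. Summed erythroid genes stood at 280, 209, 0 and 1.20 CPM, with *Hbb-bs* in 2, 2, 0 and 1 cells, and 4 of 4 tested were called lower. Summed hepatocyte genes stood at 183, 387, 334 and 367 CPM, mostly *Hp*, which monocytes and neutrophils also express, while *Alb* had a count in 0, 1, 1 and 1 cells. Of its 5 tested genes *Hp* was called higher and *Mup3* lower. Summed stellate cell, plasmacytoid dendritic cell, basophil, eosinophil and platelet genes reached at most 24.4 CPM in any mouse, with 0 genes tested. With the Kupffer-gated cells left out, 10 endothelial, 4 NK, 1 T and 2 B cell genes were called lower. The part of these cells in the calls was not tested.

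To set the level within a class apart from the share of the class, the comparison was repeated in the 5 classes with at least 50 cells in each mouse, over genes with a mean of at least 20 CPM and 100 counts in the class. In C1q macrophage-like cells 103 of 5505 genes (1.87%) were called higher and 104 (1.89%) lower. Ly6Chi monocyte-like cells had 113 of 5218 (2.17%) higher and 45 (0.862%) lower, and Ly6Clo monocyte-like cells 136 of 5345 (2.54%) higher and 80 (1.5%) lower. In neutrophil-like cells 173 of 4609 (3.75%) were higher and 55 (1.19%) lower. Cd209a dendritic cell-like cells had 75 of 5042 (1.49%) higher and 28 (0.555%) lower. By genotype, 8 (0.145%), 0 (0%), 6 (0.112%), 10 (0.217%) and 4 (0.0793%) genes moved past 2 times the same way on both diets in these classes. In Ly6Clo monocyte-like cells TMM factors gave 44 lower. A minimum of 50 CPM gave 67 and 48, 69 and 23, 89 and 29, and 102 and 33 higher and lower genes in the first 4 classes, and 8 lower in the last. The counts include gate genes, which are not named as results of the class they gate.

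Pearson's r between the pairs, across genes, was 0.618 in C1q macrophage-like, 0.542 in Ly6Chi monocyte-like, 0.484 in Ly6Clo monocyte-like, 0.452 in neutrophil-like and 0.479 in Cd209a dendritic cell-like cells. It was lower than over all cells, where the shares of classes enter, and where depth and the genes tested also differ. The part of each was not tested. The ND-fed mice set the depth of the class sums, with 74 to 196 cells per class and mouse. Ly6Clo monocyte-like sums on ND rested on 953313 and 594358 counts and neutrophil-like sums on 491022 and 839030, against 19262489 and 19200524 for Kupffer-like cells.

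Of the lipid-associated macrophage list 17 of 20 tested genes were called higher in C1q macrophage-like cells, with medians of 2.07 and 1.80. The other classes had 10 of 19 higher in Ly6Chi monocyte-like (medians 1.11 and 1.48), 5 of 18 in Ly6Clo monocyte-like (0.87 and 0.98), 5 of 20 in neutrophil-like (0.59 and 0.74) and 2 of 10 in Cd209a dendritic cell-like cells (0.41 and 0.25). None of the 5 classes had a gene of this list called lower. Of all genes tested, 1.87%, 2.17%, 2.54%, 3.75% and 1.49% were called higher in these classes, in the same order. *Lpl*, lipoprotein lipase, stood at 194, 222, 1764 and 1819 CPM in C1q macrophage-like cells, 9.07 times (8.27 to 9.97) and 8.20 times (7.32 to 9.21) higher. Over all cells *Lpl* was only 1.64 and 1.57 times higher. In C1q macrophage-like cells the fatty acid translocase *Cd36* stood at 59.1, 51.5, 570 and 530 CPM, and *Spp1* at 46.1, 60.3, 506 and 482 CPM. The membrane protein gene *Emp1* (9.05, 12.5, 103 and 118 CPM) and the stress cytokine gene *Gdf15* (40.1, 15.4, 228 and 110 CPM) were also among the 5 highest. *Trem2* stood at 179, 286, 854 and 833 CPM and *Gpnmb* at 54.8, 118, 610 and 460 CPM. Of 14 tested Nrf2 targets 7 were called higher, beside 1.87% of all genes in the class, among them *Hmox1* (141, 124, 365 and 393 CPM).

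The lowest in C1q macrophage-like cells were the collagenase *Mmp13* (177, 228, 24.0 and 11.2 CPM), the activating receptor *Lilra5* (203, 309, 30.6 and 34.3 CPM), the interferon-induced GTPase *Gbp2* (307, 94.1, 27.9 and 16.6 CPM), the adaptor *Scimp* and *Fgl2*. *Gbp2* differed between the ND-fed mice by -1.70 on the log2 scale, and both CDA-HFD values lay below both. Of all genes tested in the class, 1.89% were called lower and 1.87% higher. Of 16 tested chemokine genes 4 were called lower and 1 higher, and *Ccl4* stood at 703, 1135, 346 and 494 CPM. Of 10 tested genes of MHC class II presentation 3 were called lower here and 0 higher, and *H2-Eb1*, a class II chain, stood at 11580, 10075, 5749 and 4894 CPM. Summed Cd209a dendritic cell markers in this class stood at 12285, 10445, 6310 and 5420 CPM, mostly *H2-Aa*. Also lower on CDA-HFD were Xcr1 dendritic cell markers (716, 696, 382 and 400 CPM) and proliferating cell markers (149, 219, 64.3 and 75.8 CPM). So were summed NK cell genes (46.6, 37.5, 13.4 and 7.98 CPM) and liver endothelial genes (336, 80.1, 48.9 and 64.5 CPM). Summed Kupffer markers stood at 372, 547, 392 and 509 CPM, with no order by diet. The part of these cells in the calls was not tested.

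Among the 5 highest in Ly6Chi monocyte-like cells, *Cd14*, the lipopolysaccharide co-receptor, stood at 87.9, 96.0, 989 and 972 CPM, 11.2 times (9.61 to 13.3) and 10.1 times (8.40 to 12.3) higher. *Il1b*, the pro-inflammatory cytokine interleukin 1 beta, stood at 287, 285, 1859 and 2120 CPM. In both genes the 2 mice of 1 diet lay within 0.19 of each other on the log2 scale. *Cxcl2* stood at 34.9, 11.1, 343 and 340 CPM and *Cxcr4* at 37.2, 47.2, 320 and 303 CPM. *Spp1* rested on 12 and 4 counts on ND and stood at 6.76, 3.43, 195 and 287 CPM, so its ratios of 28.9 (16.5 to 55.9) and 83.7 (32.7 to 307) are wide. Of 7 tested clock and glucocorticoid-induced genes 5 were called higher, beside 2.17% of all genes tested in the class. The lowest were *Cxcl9* (601, 301, 31.6 and 35.5 CPM), an interferon gamma-induced chemokine, *Gbp2* (324, 199, 41.6 and 33.6 CPM), *Serpina3g*, *Ccl5* and *Flt1*. Summed C1q macrophage markers in this class stood at 2673, 2852, 4600 and 7586 CPM, mostly *Apoe*. Ly6Clo monocyte markers were also higher on CDA-HFD (426, 654, 1075 and 929 CPM, mostly *Nr4a1*). Lower were Cd209a dendritic cell markers (2646, 1551, 1217 and 1109 CPM) and Xcr1 dendritic cell markers (713, 571, 401 and 437 CPM). Summed NK cell genes were lower too (40.6, 21.4, 9.87 and 7.20 CPM). The part of such cells in the calls was not tested.

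In Ly6Clo monocyte-like cells the highest were *Atf3* (105, 72.3, 1460 and 1182 CPM), the lectin *Clec4d* (14.7, 10.1, 190 and 201 CPM), *Cd14* (39.9, 25.2, 481 and 624 CPM), *Cxcl2* (21.0, 38.7, 537 and 404 CPM) and the early response gene *Ier3*. *Ier3* rested on 7 and 2 counts on ND. All 5 were higher in both pairs by at least 3.35 on the log2 scale, although the share of the class itself overlapped between the diets. The lowest were *Ccl5* (226, 175, 36.6 and 25.1 CPM), the cytokine lymphotoxin beta gene *Ltb* (147, 133, 37.7 and 29.4 CPM), *Slc46a3*, *Cd300ld3* and *Tppp3*. Summed Ly6Chi monocyte markers in this class stood at 607, 594, 1395 and 1772 CPM, mostly *Chil3*. The median of own markers fell from 6 to 5 of 8, and the part of either in the calls was not tested.

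Neutrophil-like cells, with median counts per cell of 3832, 3955, 4132 and 4100, had the largest count of called genes among the 5 classes. On ND their sums rested on 491022 and 839030 counts, and the part of low depth in this count was not tested. *Cxcl2* stood at 546, 541, 11865 and 7385 CPM, 21.7 times (19.3 to 24.6) and 13.6 times (12.4 to 15.0) higher. *Ccl4*, another chemokine and called lower in C1q macrophage-like cells, stood at 509, 318, 4288 and 2937 CPM here. Both CDA-HFD values of each lay far above both ND values, which the rule for naming genes favours. *Thbs1* stood at 12.2, 28.6, 281 and 283 CPM, and *Rabgef1* at 6.11, 5.96, 208 and 101 CPM from 3 and 5 counts on ND. *Hilpda*, a lipid droplet protein that inhibits lipolysis, had 5 and 1 counts on ND and 783 and 390 on CDA-HFD. Of 23 tested NF-kB targets 11 were called higher and 0 lower, beside 3.75% and 1.19% of all genes tested in the class. Their medians were 0.82 and 1.17, against -0.07 and -0.02 for all genes of the class. The lowest were *Gbp5* (189, 54.8, 12.4 and 11.8 CPM), *Ifi47*, *Xpc*, *Mtus1* and *Myadm*. *C1qa*, *C1qb* and *C1qc* were also called higher here, beside summed C1q macrophage markers of 587, 504, 991 and 2325 CPM, mostly *Apoe*. Markers of other classes also rose here. Their sums were 523, 576, 1509 and 1080 CPM for Ly6Clo monocytes, mostly *Nr4a1*, which was itself called higher in this class. They were 760, 162, 1210 and 1364 CPM for Cd209a dendritic cells and 22.4, 13.1, 64.0 and 86.4 CPM for Ccr7 dendritic cells. The part of such cells in the calls was not tested.

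In Cd209a dendritic cell-like cells *Ccl4* stood at 55.6, 26.3, 844 and 717 CPM, *Ccl3* at 20.3, 59.3, 430 and 416 CPM and *Tnfsf9* at 33.5, 33.0, 328 and 296 CPM. The scaffold gene *Grasp* and *Atf3* (168, 163, 1123 and 1063 CPM) were also among the 5 highest. The 2 mice of each diet were close for *Tnfsf9* and *Atf3*, while the ND-fed mice differed by 1.5 on the log2 scale for *Ccl3*. Of 12 tested genes of MHC class II presentation 0 were called in either direction, with medians of -0.12 and -0.04. This cannot be told apart from the class shares of 1.49% higher and 0.555% lower. *H2-Eb1* stood at 13740, 13358, 14571 and 14470 CPM and *Cd74* at 22647, 24037, 23824 and 23618 CPM. The gate markers of this class include the class II gene *H2-Aa*. The lowest were *Scimp*, *Tnni2*, *Ltb*, *Glrx* and *Batf3* (133, 122, 56.5 and 58.8 CPM), a factor of conventional dendritic cells. Summed Ccr7 dendritic cell markers in this class stood at 42.5, 55.5, 426 and 360 CPM, mostly *Ccl22*, and summed T cell genes at 168, 239, 5.94 and 16.4 CPM. Ly6Clo monocyte markers (224, 283, 528 and 476 CPM, mostly *Nr4a1*) were also higher on CDA-HFD. So were C1q macrophage markers (138, 189, 249 and 363 CPM, mostly *Apoe*). The gate markers *Cd7* and *Klrd1* are shared with T and NK cells. The part of all such cells in the calls was not tested.

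The classes shared a set of higher genes. *Ccrl2*, *Fosb*, *Gadd45b*, *Ifrd1* and *Rilpl2* were called higher in all 5 classes, 17 more genes in 4, 48 in 3, 63 in 2 and 237 in 1. *Gadd45b*, a stress-induced regulator of MAP kinases, stood at 47.4, 48.5, 252 and 139 CPM in C1q macrophage-like cells and at 399, 260, 2198 and 1195 CPM in neutrophil-like cells. *Fosb* stood at 27.0, 12.0, 166 and 181 CPM in Ly6Chi monocyte-like and at 38.9, 58.6, 396 and 314 CPM in Cd209a dendritic cell-like cells. *Ifrd1*, an interferon-related regulator of transcription, stood at 38.8, 69.0, 328 and 261 CPM in Ly6Clo monocyte-like cells. In each of these the CDA-HFD values lay above both ND values, which being called in both pairs makes likely. The 17 genes of 4 classes were *Atf3*, *Ccl3*, *Cd14*, *Cd83*, *Clec4e*, *Coq10b*, *Csrnp1*, *Dusp2*, *Hilpda*, *Nfkbid*, *Nr4a2*, *Pim1*, *Ppp1r15a*, *Ptgs2*, *Thbs1*, *Tiparp* and *Tnfaip3*.

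Immediate early genes made up part of this set. They encode transcription factors and feedback phosphatases that are switched on without new protein synthesis. The part of the warm digestion of the liver in their levels was not tested. Over all cells 18 of 25 were called higher and 0 lower, with medians of 1.54 and 1.56, and without the Kupffer-gated cells 10 higher and 0 lower. Within classes 5 of 21 tested were called higher in C1q macrophage-like, 14 of 21 in Ly6Chi monocyte-like, 12 of 19 in Ly6Clo monocyte-like, 10 of 23 in neutrophil-like and 14 of 24 in Cd209a dendritic cell-like cells, and 0 lower in any. Of all genes tested, 1.87%, 2.17%, 2.54%, 3.75% and 1.49% were called higher in these classes, in the same order. The medians of the list in both pairs lay between 0.54 and 1.68, against -0.13 to -0.02 for all genes tested in these classes. *Nr4a2*, an orphan nuclear receptor, stood at 6.53, 4.31, 70.4 and 56.0 CPM over all cells, while *Klf2* (180, 158, 110 and 106 CPM) went the other way, short of 2 times. *Fos* stood at 345, 340, 1310 and 1568 CPM in Ly6Chi monocyte-like cells, but at 1462, 1149, 1363 and 1684 CPM in neutrophil-like cells, where the diets overlapped. *Egr1* fell in C1q macrophage-like cells (129, 185, 92.8 and 97.0 CPM), short of 2 times, and rose in neutrophil-like cells (198, 268, 680 and 551 CPM).

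**Figure D3:**
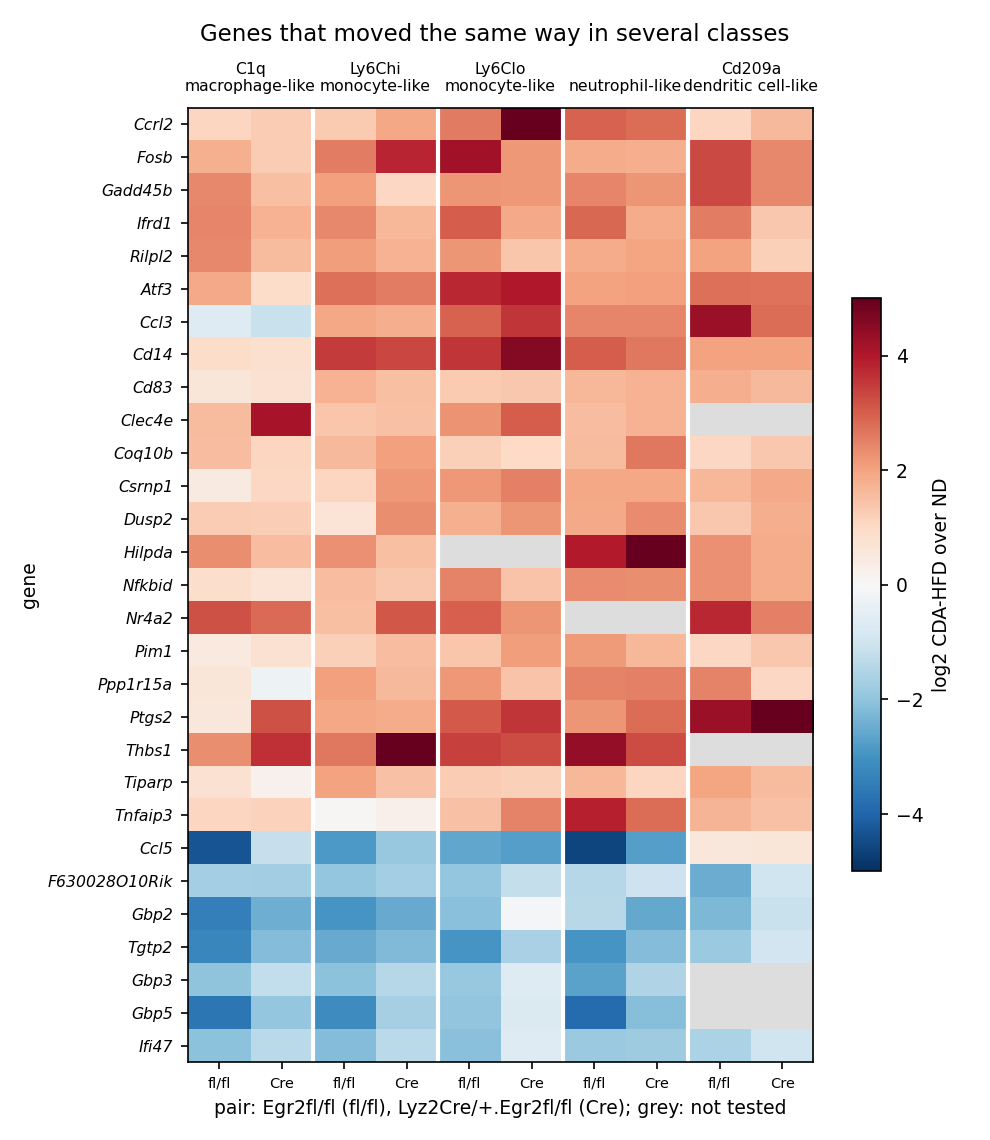
Log2 CDA-HFD over ND ratio (colour, scale ending at -5 and 5) in 5 classes and both pairs, for the 22 genes called higher in at least 4 classes and the 7 called lower in at least 3. Grey marks a gene not tested in a class; *Ccl5* is the lower gene with a higher ratio in Cd209a dendritic cell-like cells.

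The genes lower in several classes were fewer. *Ccl5*, *F630028O10Rik*, *Gbp2* and *Tgtp2* were called lower in 4 classes and *Gbp3*, *Gbp5* and *Ifi47* in 3, with 0 in all 5. *Gbp2*, *Gbp3*, *Gbp5*, *Tgtp2* and *Ifi47* encode GTPases induced by interferon gamma that attack vacuoles of pathogens. *Tgtp2* stood at 138, 58.1, 13.3 and 12.2 CPM in C1q macrophage-like and at 96.3, 54.9, 16.1 and 11.1 CPM in Ly6Chi monocyte-like cells. *Ifi47* stood at 270, 174, 59.5 and 67.8 CPM in Ly6Chi monocyte-like cells. In these classes the ND-fed Egr2fl/fl mouse had the highest value of both genes, but in neutrophil-like cells *Ifi47* (91.6, 105, 24.3 and 29.7 CPM) was highest in the ND-fed Lyz2Cre/+.Egr2fl/fl mouse. In Ly6Clo monocyte-like cells *Gbp2* (114, 23.6, 26.5 and 22.3 CPM) was high in the ND-fed Egr2fl/fl mouse alone. *Ccl5* was also highest in that mouse in C1q macrophage-like cells, at 1100, 100, 54.6 and 44.3 CPM. Among interferon-stimulated genes 5 of 28 tested were called lower in C1q macrophage-like, 6 of 32 in Ly6Chi monocyte-like, 0 of 23 in Ly6Clo monocyte-like, 3 of 29 in neutrophil-like and 1 of 23 in Cd209a dendritic cell-like cells. Of all genes tested, 1.89%, 0.862%, 1.5%, 1.19% and 0.555% were called lower in these classes, in the same order. Counts of 0 or 1 cannot be told apart from these shares. *Ifi27l2a*, induced by type I interferon, was called higher in Ly6Clo monocyte-like cells.

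Because these genes moved together in several classes, their promoters were read from RefSeq (build GRCm38.p6), as the 250 bases before and 50 after each gene's start. The genes and motifs were chosen after the values had been seen. TGACG, the core of the sites of CREB and ATF factors, was searched on both strands. It occurred in 14 of the 19 genes called higher in at least 4 classes that had a promoter (of 22), in 20.8% of all 32851 promoters and for 23.0% of all genes with a promoter. The *Ccrl2*, *Fosb*, *Ifrd1* and *Rilpl2* promoters are shown because these genes were called higher in all 5 classes, with the motif or its complement in capitals. They lie at chr9:111057469-111057768, chr7:19309996-19310295, chr12:40223140-40223439 and chr5:124478186-124478485, all on the minus strand, and *Gadd45b* had no match in this window. *Ccrl2* has 3 promoters, of which 1 with a match is shown. The share of all genes includes genes not tested in any class, so it is no matched background, and no test was made. A match describes letters, not a bound site.
Ccrl2: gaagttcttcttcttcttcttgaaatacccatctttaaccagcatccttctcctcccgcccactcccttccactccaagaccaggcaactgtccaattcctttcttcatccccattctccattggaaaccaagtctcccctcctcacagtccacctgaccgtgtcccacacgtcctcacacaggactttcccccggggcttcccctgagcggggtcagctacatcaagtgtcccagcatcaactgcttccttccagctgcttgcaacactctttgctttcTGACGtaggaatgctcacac
Fosb: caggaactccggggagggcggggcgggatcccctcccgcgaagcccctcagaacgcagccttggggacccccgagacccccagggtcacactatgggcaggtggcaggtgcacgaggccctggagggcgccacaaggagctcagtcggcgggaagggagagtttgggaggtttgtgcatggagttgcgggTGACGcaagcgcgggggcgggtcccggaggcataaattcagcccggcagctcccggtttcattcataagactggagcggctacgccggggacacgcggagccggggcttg
Ifrd1: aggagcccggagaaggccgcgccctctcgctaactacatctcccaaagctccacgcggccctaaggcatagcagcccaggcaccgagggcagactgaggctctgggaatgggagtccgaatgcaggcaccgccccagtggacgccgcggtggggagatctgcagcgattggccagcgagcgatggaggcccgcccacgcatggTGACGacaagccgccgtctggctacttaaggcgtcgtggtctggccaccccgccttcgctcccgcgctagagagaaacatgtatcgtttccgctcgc
Rilpl2: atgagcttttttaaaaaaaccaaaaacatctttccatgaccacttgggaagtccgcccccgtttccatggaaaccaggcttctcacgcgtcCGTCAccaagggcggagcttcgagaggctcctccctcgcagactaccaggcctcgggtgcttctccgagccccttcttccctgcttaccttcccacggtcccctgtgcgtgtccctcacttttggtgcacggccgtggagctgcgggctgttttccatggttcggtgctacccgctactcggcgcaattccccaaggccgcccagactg

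GAAA followed by 2 bases of any kind and GAAA again, the core of interferon-stimulated response elements, was searched on both strands in the same way. It occurred in 5 of the 6 genes called lower in at least 3 classes that had a promoter (of 7), in 3.44% of all promoters and for 3.99% of all genes. Among the genes called higher in at least 4 classes it occurred in 1 of 19, and TGACG in 0 of these 6. The neighbouring *Gbp2* (chr3:142620413-142620712), *Gbp3* (chr3:142559794-142560093) and *Gbp5* (chr3:142496684-142496983) promoters, on the plus strand, are shown as members of 1 family that fell together, with the matched letters in capitals. *Gbp3* has 2 promoters, of which 1 is shown, and in it 2 matches overlap. Neighbouring promoters of 1 family are not independent, and the share of all genes is no matched background here either.
Gbp2: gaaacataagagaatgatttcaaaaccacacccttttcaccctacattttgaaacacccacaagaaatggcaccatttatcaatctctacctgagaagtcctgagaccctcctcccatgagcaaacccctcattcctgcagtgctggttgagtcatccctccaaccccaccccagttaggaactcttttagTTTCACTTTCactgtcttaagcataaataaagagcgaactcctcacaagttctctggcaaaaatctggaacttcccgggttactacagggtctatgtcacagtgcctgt
Gbp3: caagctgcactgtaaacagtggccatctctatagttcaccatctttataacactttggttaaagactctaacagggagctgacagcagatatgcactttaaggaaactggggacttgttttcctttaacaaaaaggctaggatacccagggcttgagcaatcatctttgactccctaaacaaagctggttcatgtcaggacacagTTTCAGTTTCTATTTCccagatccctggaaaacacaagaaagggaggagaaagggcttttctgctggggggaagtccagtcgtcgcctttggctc
Gbp5: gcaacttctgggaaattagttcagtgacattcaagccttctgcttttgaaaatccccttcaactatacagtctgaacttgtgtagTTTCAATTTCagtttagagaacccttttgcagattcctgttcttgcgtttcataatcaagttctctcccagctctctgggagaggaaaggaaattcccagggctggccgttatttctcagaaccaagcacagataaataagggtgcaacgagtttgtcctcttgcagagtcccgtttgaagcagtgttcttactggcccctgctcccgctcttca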

How the data were processed

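Cells were sorted from the livers of 4 mice, 1 per genotype and diet, and pooled with 1 hashtag per mouse. The authors made the deposited counts from trimmed and filtered reads mapped to GRCm38 transcripts with their TAS-Seq pipeline, assigned barcodes to hashtags, and used Seurat 4.1.1 with R 4.2.1 after that. Low values of some genes were already 0 in these counts, by a step that the methods do not name. Cells were grouped by the hashtag in their names, and the other 7 columns of the hashtag table, which match no mouse, were left unused.

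Counts were summed per mouse and divided by the total (CPM). Ratios of CDA-HFD over ND on the log2 scale had 1 CPM added. Genes needed a mean of 10 CPM over all cells, or 20 CPM and 100 counts within a class. A gene at least 2 times apart in 1 direction in both genotype pairs was called, and no p-value was computed. Cells of a class, called with lists of marker genes, had at least 50% of measured markers at 100 CPM, and a class was compared with at least 50 cells in each mouse. The markers, comparisons and minimums were written before the data were examined. The rule of the gates (level and share of markers, precedence of Kupffer cells) was set after seeing the data. The members of the gene lists were chosen with earlier results of these data known.

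Named genes were the 10 highest and 10 lowest called genes over all cells by the smaller ratio of both pairs, and 5 each way within a class, all with a mean of at least 50 CPM. The diet difference also had to exceed the genotype difference, and gene models, mitochondrial genes and members of the lists of other cell types were skipped, as were gate markers within a class. *Igha* is on none of these lists. The 2 highest and 2 lowest members of each list and genes that the paper names could be named too, and other names were chosen after their values were seen. Alternatives were TMM factors and DESeq2 size factors, the mean over cells of each cell's CPM, other minimums and pseudocount, other mitochondrial limits, a minimum of hashtag purity, omission of Kupffer-gated cells, equal class weights, 1 more gate marker, and cells thinned to 3000 counts. Each ran alone.

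The code was tested on simulated data. Python 3.11.15, NumPy 2.4.6, SciPy 1.17.1, pandas 2.3.3, matplotlib 3.10.9, R 4.3.3, edgeR 4.0.16 and DESeq2 1.42.0 were used. Depth per mouse is given with the results.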

Additional observations from a re-analysis of the deposited data

How the results depend on the processing

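With 1 mouse per group no setting left a mouse out. No mouse was measured on both diets, and a fit with genotype as a block, which leaves 1 residual degree of freedom, was not made. Of the 93 named genes called over all cells, those still past 2 times the same way numbered 93 with no mitochondrial limit, 92 with at most 10% mitochondrial counts, 92 with at least 90% of hashtag counts on the own hashtag, 91 with TMM factors, 91 with 5 CPM added, 90 with size factors and 83 with the mean over cells of each cell's CPM. They numbered 43 with equal class weights and 38 without Kupffer-gated cells.

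Against 270 higher and 462 lower genes, the counts were 322 and 371 with TMM factors, 321 and 362 with size factors, 184 and 403 with the mean over cells, 212 and 376 with 5 CPM added, 271 and 460 with at most 10% mitochondrial counts, 270 and 462 with no limit and 299 and 485 with the hashtag minimum. The Egr2fl/fl pair alone gave 331 and 545 and the Cre pair alone 335 and 559. A mean of at least 1 CPM gave 929 lower among 13859 tested. A mean of at least 50 CPM, with fewer genes tested (2812), gave 127 and 177. Without Kupffer-gated cells there were 146 and 222. With equal class weights there were 116 and 60, of which 80 and 27 were also called with the weights as measured.

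Within classes, the minimum of 50 CPM, which tests fewer genes, gave 67 higher and 48 lower in C1q macrophage-like, 69 and 23 in Ly6Chi monocyte-like, 89 and 29 in Ly6Clo monocyte-like and 102 and 33 in neutrophil-like cells, and 8 lower in Cd209a dendritic cell-like cells. TMM factors gave 44 lower in Ly6Clo monocyte-like cells, and the cause was not tested.

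With 1 more gate marker, which admits fewer cells, the shares in the CDA-HFD-fed mice (Egr2fl/fl, then Lyz2Cre/+.Egr2fl/fl) were 23.2% and 24.8% C1q macrophage-like and 4.35% and 5.17% Ly6Clo monocyte-like, 0.582% Kupffer-like in Lyz2Cre/+.Egr2fl/fl and 14.7% neutrophil-like in Egr2fl/fl. For all 4 mice they were 6.21%, 4.40%, 14.8% and 14.9% Ly6Chi monocyte-like and 2.73%, 2.01%, 3.76% and 3.65% Cd209a dendritic cell-like. With cells thinned to 3000 counts, the CDA-HFD shares were 24.4% and 25.7% C1q macrophage-like, 15.6% and 16.8% Ly6Chi monocyte-like and 4.84% and 5.09% Ly6Clo monocyte-like. Cd209a dendritic cell-like shares were then 3.89%, 3.27%, 5.06% and 5.30%.

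Among gene list medians and named called genes, directions turned round without Kupffer-gated cells and with equal class weights, and with TMM factors for list medians near 0. Without Kupffer-gated cells the list medians became 0.11 for Kupffer identity and 0.056 for complement in the Egr2fl/fl pair, and, in both pairs, 0.76 and 0.62 for iron and heme (from -0.87 and -1.16), 0.44 and 0.56 for lysosome (from -0.36 and -0.42), 0.79 and 0.63 for lipid uptake, storage and efflux (from -0.06 and -0.02), -0.35 and -0.55 for cholesterol synthesis (from 0.32 and 0.36) and -0.09 and -0.03 for ribosomal proteins (from 0.41 and 0.53). In 1 pair alone the Fc gamma receptor (Egr2fl/fl), MHC class II, S100 and annexin, and integrin medians (Cre) also changed sign. The smaller log2 ratio of both pairs became 2.92 for *Cd5l*, 2.24 for *Igf1*, 1.79 for *Hmox1*, 1.47 for *Nr1h3*, 1.18 for *Blvrb*, 0.29 for *Vcam1*, 0.12 for *Marco*, 0.013 for *Apoc1*, 0.0032 for *Timp2* and -0.093 for *Fcgr2b*. With equal class weights it became 1.87 for *Cd5l*, 1.5 for *Hmox1*, 1.28 for *Igf1*, 0.45 for *Nr1h3*, 0.39 for *Blvrb*, 0.28 for *Il1a* and -0.10 for *Anxa1*. *Cd5l*, *Marco* and 10 genes of the Kupffer identity list, these 2 among them, are markers of the Kupffer gate. The first 2 alternatives remove or reduce the weight of the class that gave most counts on ND.

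Not run, with fewer than 50 cells in a mouse, were the hashtag minimum in C1q macrophage-like (44 cells) and neutrophil-like cells (23) and 1 more gate marker in Cd209a dendritic cell-like cells (32). Depth limits the classes more than the sums over all cells: on ND a class held 74 to 196 cells of a mouse, and a gene at few counts there has a wide interval.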
